A study of Mus musculus with 8 samples.

Results

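The comparison described here is the difference between 2 effects of Rif1 knockdown in mouse embryonic stem cells: the effect in stable F1 knockdown cells minus the early effect in J1 cells. It used all 8 of the 8 arrays of the series, 2 in each of 4 groups, with total RNA measured on Affymetrix mouse genome arrays. J1 cells (background strain 129S4/SvJae) received control shRNA or Rif1 shRNA, a short hairpin RNA against Rif1, with lipofectamine 2000 and were collected 48 h after transfection. F1 cells (C57BL/6xC3H) with a stable Rif1 knockdown were collected at passage 16, beside arrays labelled control shRNA. All groups were grown on feeder plates, so fibroblast RNA can be part of any sample. The labels of the F1 control arrays name the control under transfection but the stable knockdown line under cell line, and the treatment protocol speaks of virus or siRNA. The settings differ in strain, delivery and time at once, and which of these goes with a difference cannot be told apart here. Nothing states that the 2 arrays of a group came from separate cultures, so the p-values reflect array-to-array spread within a group and nothing wider, and that spread may be technical.

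Rif1 is a large nuclear protein that binds protein phosphatase 1, times the firing of replication origins and steers the repair of broken DNA ends. In embryonic stem cells it is known for keeping heterochromatin and telomeres in order and for holding down genes of the 2-cell embryo, a stage that a small share of cells in such cultures resembles. Genes of that stage, among them the Tcstv, Zscan4, Usp17l and Pramel families, lie in clusters of related copies and are driven by the transcription factor Dux.

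Each gene was taken at the brightest of its measured probe sets, the short-oligonucleotide sets of the array. An effect is the log2 fold change of Rif1 shRNA over control, computed on log2(signal + 18) after quantile normalization, and adding 18 understates changes of dim genes. The threshold for an effect or for the difference was 0.05 on the Benjamini-Hochberg adjusted p of limma, a linear model fitted across all probe sets. The 95% interval of the difference had a median half-width of 0.35 on the log2 scale, so smaller differences were mostly not detectable with 2 arrays a group. The deposited signals had 2% trimmed means of 193 to 197 in J1 and 301 to 309 in F1. Levels given below as deposited signal are therefore not directly comparable between the settings. For actin, the ratio of 3' to 5' probe set signal, a sign of RNA quality, was 2.61 to 2.71 in J1 controls, 2.17 to 2.18 in J1 Rif1 shRNA arrays and 1.33 to 1.41 in F1, and its part in the J1 effects was not tested. The pluripotency genes Pou5f1 (effects -0.02 in J1 and 0.08 in F1) and Nanog (-0.08 and 0.14) did not pass in either setting, and the summed signal of 31 pluripotency genes lay between 75702 and 79134 in J1 and between 100572 and 107072 in F1. Other members did change: of the 31, 15 fell and 5 rose in F1, against 4 and 1 in J1.

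Rif1 itself was lower on every Rif1 shRNA array than on the controls of its setting at all 4 of its probe sets. At the brightest, the signal was 2614 and 3222 on J1 controls, 1260 and 1297 on J1 Rif1 shRNA arrays, 4231 and 4247 on F1 controls and 1339 and 1407 on F1 Rif1 shRNA arrays. In deposited signal both settings ended near one level at this probe set, from a lower start in J1, but J1 arrays also had the lower trimmed means. Another probe set started higher in J1, at 1013 and 1095 on J1 controls. At the brightest probe set the effects were -1.08 and -1.74 (SE 0.08 each), and the difference of -0.66 passed (limma adjusted p = 0.00454). It passed at 1 of the other 3 probe sets (-0.82, adjusted p = 0.00769) and not at the remaining ones (-0.22 and -0.44). The probe set with -0.22 was dim in F1, at 107 and 57.1 on controls, and its difference turned to 0.49 with an offset of 72.

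Across the genome the F1 effect departed from the J1 effect in both directions. Of 31605 probe sets, 1578 (4.99%) had an F1 effect above the J1 effect and 1066 (3.37%) one below it, and 385 and 91 of these differed at least 2-fold. Over all probe sets the effects correlated weakly (Pearson 0.15, Spearman 0.07; a description across probe sets, which are not independent). The count is sensitive to single arrays: 634 above and 380 below without F1 Rif1 shRNA replicate 1, 707 and 410 without replicate 2, 915 and 524 without F1 control replicate 1, 882 and 501 without replicate 2, and 2382 and 1613 without J1 Rif1 shRNA replicate 1. The J1 arrays were the noisier, with a median residual SD of 0.11 against 0.07 in F1, while the fit gave both 1 spread.

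By gene, 273 of 14714 were higher in J1 Rif1 shRNA arrays (1.86%) and 320 lower (2.17%). In F1, 1566 were higher (10.6%) and 1206 lower (8.20%). The difference between effects was above 0 for 920 genes (6.25%) and below 0 for 643 (4.37%). Higher in both settings were 128 genes, which is 46.9% of the J1 list and 8.17% of the F1 list. Lower in both were 66 genes, 20.6% of the J1 list and 5.47% of the F1 list. A further 85 genes passed in opposite directions: 60 lower in J1 and higher in F1 (18.8% of the J1 list, 3.83% of the F1 list), and 25 higher in J1 and lower in F1 (9.16% and 2.07%). A call in 1 setting alone did not mark a difference. Of 2493 genes called in F1 alone, 1133 passed the difference and 1360 did not. For the 314 called in J1 alone, 145 passed it.

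**Figure D1:**
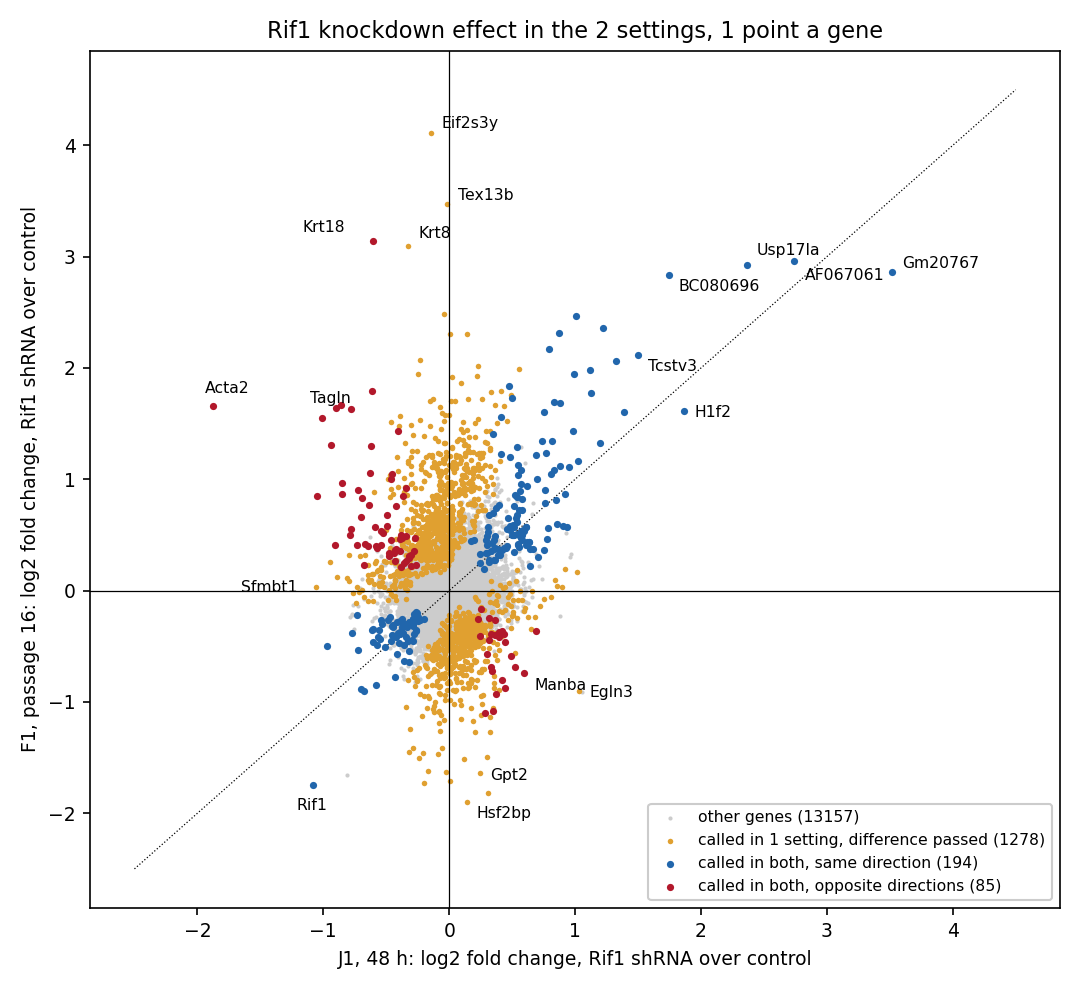
Effect of Rif1 shRNA in J1 cells (horizontal, log2 fold change) against that in F1 cells (vertical), 1 point a gene at its brightest probe set; the dotted line marks equal effects. The 2-cell genes AF067061 and Gm20767 lie far out near that line, Eif2s3y, Tex13b and Krt8 rise along the F1 axis with J1 effects near 0, and Acta2 and Krt18 lie at upper left, lower in J1 and higher in F1.

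Genes of the 2-cell embryo led the rises shared by both settings. Of 14 measured genes on that list, 8 rose in J1 and 11 in F1, and 8 rose in both. None of the 14 fell in either. The medians were 0.96 in J1 and 2.14 in F1, against 0.01 and -0.02 over all genes. Fits without either F1 Rif1 shRNA array tested 13 of the 14, so a lower count there need not be lost calls alone. The larger effect was in F1 for 8 past the difference test and in J1 for 1, Gm20767; the 8 came to 5 without J1 control replicate 2, F1 control replicate 2 or F1 Rif1 shRNA replicate 2 and to 4 without F1 Rif1 shRNA replicate 1.

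AF067061, a member of a clustered 2-cell gene family on chromosome 13, rose strongly in both settings. Its signal was 61 and 56.1 on J1 controls, 378 and 372 on J1 Rif1 shRNA arrays, 541 and 564 on F1 controls and 4612 and 4021 on F1 Rif1 shRNA arrays. The groups did not overlap in either setting. In deposited signal the F1 controls stood above the J1 knockdown, but F1 arrays also had the higher trimmed means, so a higher level in F1 controls is not shown. It rose 6.69-fold in J1 and 7.79-fold in F1 (SE 0.08 on the log2 scale for each), and the difference of 0.22 had a 95% interval from -0.03 to 0.47 (limma adjusted p = 0.299). That difference grew and passed under 3 alternatives: 0.69 with an offset of 72 (limma adjusted p = 0.00247), 0.56 when arrays were not normalized further (0.0103) and 0.54 when each setting was normalized alone (0.00934). Its promoter is shown because it is 1 of 39 promoters (0.331% of the 11779 found for tested genes) with TGATTNAAT, the letters of the Dux core motif, on either strand; on the 2-cell list Duxf3 was the other, so 2 of 8 promoters found. The run covers 250 bases before to 50 after the start site on the plus strand, chr13:120262845-120263144 of GRCm38.p6 (RefSeq), with the match in capitals.

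AF067061: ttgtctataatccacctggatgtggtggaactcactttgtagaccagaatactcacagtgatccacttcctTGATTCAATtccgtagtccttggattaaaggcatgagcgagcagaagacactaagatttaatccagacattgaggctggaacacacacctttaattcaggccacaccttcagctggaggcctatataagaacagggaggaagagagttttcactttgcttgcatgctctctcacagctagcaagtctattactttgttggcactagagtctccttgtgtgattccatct

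Gm20767, a predicted gene, lies beside it with 1 protein-coding gene between. Its signal was 58.3 and 41.9 on J1 controls, 541 and 579 after J1 knockdown, 404 and 422 on F1 controls and 3422 and 2963 after F1 knockdown. J1 gave the larger effect, 3.52 against 2.86, with a difference of -0.66 (limma adjusted p = 0.0221). That call depended on the setting: adjusted p was 0.088 and 0.112 without F1 control replicate 1 or 2, 0.06 and 0.201 without F1 Rif1 shRNA replicate 1 or 2, and 0.49 with values as deposited, where the difference was -0.20. It shrank to -0.23 with normalization within each setting and to -0.09 with an offset of 72 (0.351 and 0.727).

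Usp17la, which encodes a deubiquitinase, rose from 53.6 and 52.5 to 278 and 254 in J1 and from 195 and 202 to 1954 and 1814 in F1. BC080696 rose from 15.3 and 18.4 to 99.5 and 76.2 in J1 and from 145 and 129 to 1414 and 1258 in F1. Tcstv3, a neighbour of AF067061 with 1 coding gene between, went from 23.7 and 20.5 to 82.0 and 87.6 in J1 and from 22.4 and 24.5 to 237 and 185 in F1. The 3 rose further in F1, by 0.56, 1.09 and 0.62 on the log2 scale (limma adjusted p = 0.0224, 0.0127 and 0.0448), without overlap of groups in either setting. These differences were fragile: that of Usp17la passed without J1 control replicate 1 and without J1 Rif1 shRNA replicate 1 and was lost without each of the other 6 arrays (adjusted p = 0.0517 to 0.134), BC080696 was lost without J1 control replicate 2, F1 control replicate 2 or F1 Rif1 shRNA replicate 1 (0.0618 to 0.0723), and Tcstv3 was lost without each array but J1 Rif1 shRNA replicate 1 (0.0514 to 0.232). With an offset of 1 all 3 were lost (adjusted p = 0.162, 0.405 and 0.141).

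Of the remaining shared members, 2 passed the difference with the larger F1 effect. Sp110 had 1.22 and 2.36, a difference of 1.14, and Arg2, the mitochondrial arginase, 0.79 and 2.17, a difference of 1.38 (limma adjusted p = 0.00158 and 0.000862). Ubtfl1, expressed before implantation, had 1.13 and 1.78 (difference 0.65, limma adjusted p = 0.069). Among measured 2-cell genes, Tcstv1, Zfp352 and Spz1 passed in F1 and in the difference but not in J1. Tcstv1 had 15.7 and 14.3 on J1 controls, 17.2 and 19.9 after J1 knockdown, 68.9 and 59.5 on F1 controls and 535 and 500 after F1 knockdown, so its J1 values lay near or under the offset of 18. Zfp352, a zinc finger gene of the 2-cell stage, was at 78.4 and 73.5 on J1 controls, 85.3 and 99.8 after J1 knockdown, 49.0 and 55.0 on F1 controls and 366 and 338 after F1 knockdown. Their differences were 2.17 and 1.79 (limma adjusted p = 2.71e-05 and 6.57e-05). Duxf3, a Dux family gene, had 0.16 and 0.49 and passed in neither setting.

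H1f2, a linker histone gene, rose alike. Its signal went from 242 and 223 to 858 and 844 in J1 and from 192 and 146 to 706 and 605 in F1, effects of 1.86 and 1.61. The difference of -0.25 had an interval from -0.61 to 0.11 (limma adjusted p = 0.414). The core histone gene H3c7 rose in both as well (0.58 and 0.50). Other shared rises included the germ cell genes Dazl (1.32 and 2.06), Slc25a31 (1.2 and 1.33), Mael (0.94 and 0.57), Sycp1 (0.78 and 0.56) and Sycp2 (0.54 and 0.41), the metallothioneins Mt1 (0.32 and 0.68) and Mt2 (0.17 and 0.45), which are adjacent, and the Nodal antagonists Lefty1 (0.42 and 0.36) and Lefty2 (0.51 and 0.58). Of the 128 shared rises, 28 were larger in F1 and 2, Gm20767 and the mitochondrial ribosome gene Mrpl13, smaller, while 98 did not pass the difference. In all 8 fits that left out 1 array, 36 of the 128 kept both calls, and 52 did when each setting was given its own spread. Those 36 included the 6 genes with the largest smaller effect, named above from Gm20767 to H1f2, and Dazl and Slc25a31.

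**Figure D2:**
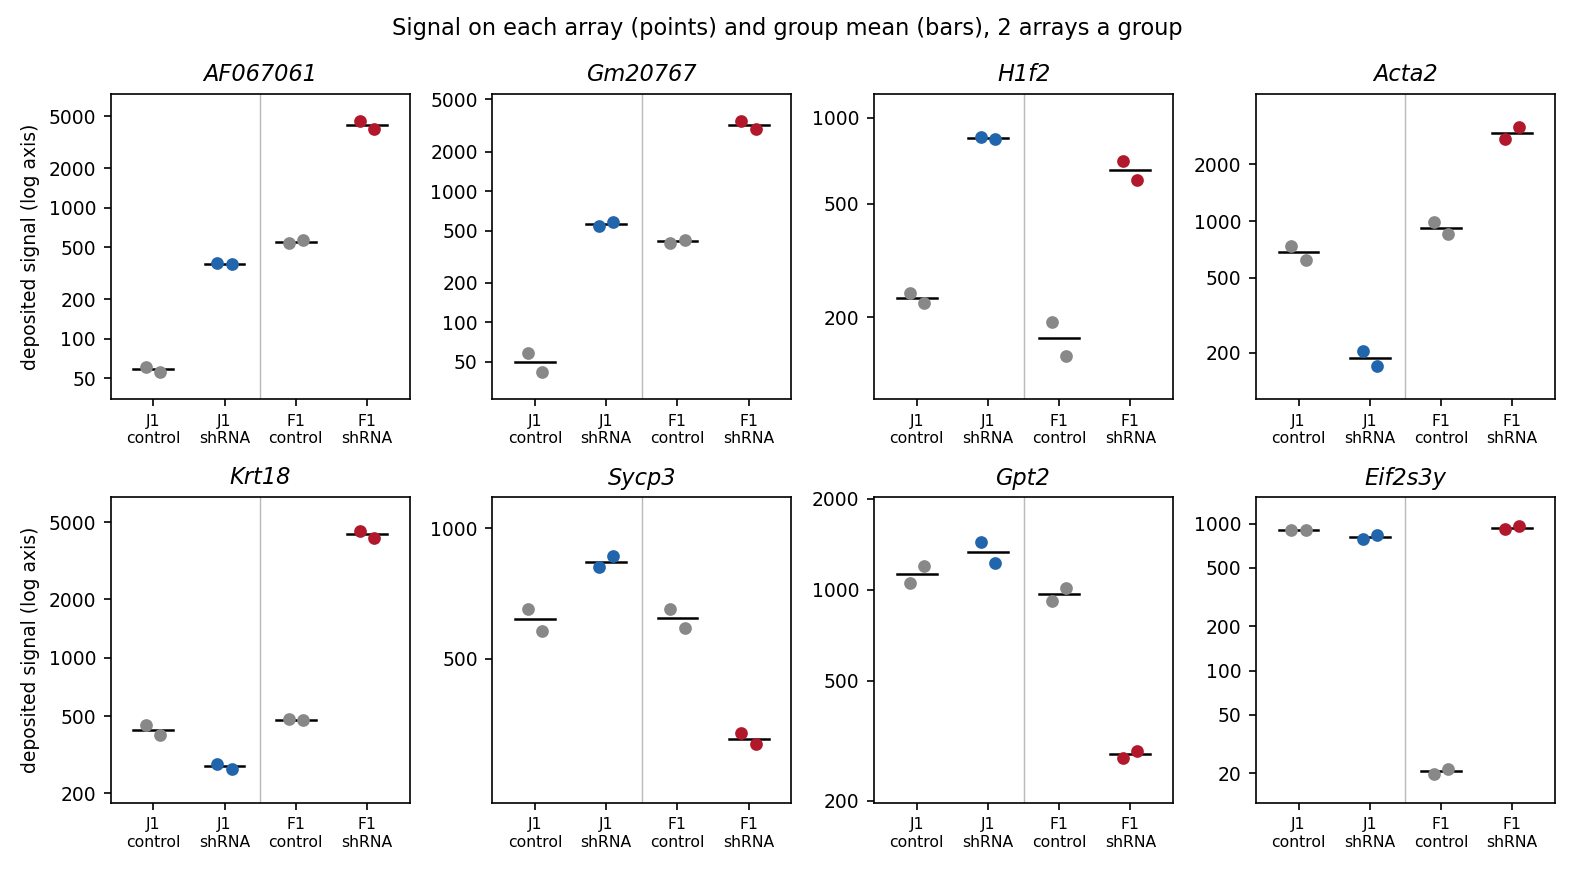
Deposited signal of 8 genes on each array (points, log axis) with the mean of each group of 2 (bars); J1 on the left of each panel, F1 on the right. AF067061, Gm20767 and H1f2 are higher in Rif1 shRNA arrays of both settings, Acta2 and Krt18 fall in J1 and rise in F1, Sycp3 does the reverse, and Gpt2 and Eif2s3y move in F1.

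Shared falls were smaller. Only Rif1 itself fell at least 2-fold in both settings, and of the 66 genes 3 passed the difference (Rif1, Utrn and Nfatc2ip). The next largest were Lama1, a basement membrane laminin chain, with effects of -0.70 in J1 and -0.88 in F1, AU018091 with -0.67 and -0.90, Tfap2c, a transcription factor of trophoblast and germ cells, with -0.58 and -0.85, Cbr3, a carbonyl reductase, with -0.72 and -0.53, and Bend3, a factor bound at heterochromatin, with -0.51 and -0.50. Tfap2c had 1335 and 1187 on J1 controls, 799 and 833 after J1 knockdown, 1334 and 1175 on F1 controls and 712 and 677 after F1 knockdown, without overlap in either setting. Its deposited signals were thus alike in both settings, though these are not on 1 scale. Bend3 had 587 and 650, then 439 and 415, in J1 and 1178 and 1163, then 796 and 880, in F1. For these 5 the differences ran from -0.27 to 0.19 and none passed. The widest interval, that of Lama1, ran from -0.64 to 0.29. In J1 the call of Lama1 was lost without J1 control replicate 2, J1 Rif1 shRNA replicate 2 or either F1 Rif1 shRNA array (limma adjusted p = 0.0558 to 0.199), and that of Bend3 without J1 control replicate 2 (0.0643). In all 8 fits that left out 1 array, 5 of the 66 kept both calls: Rif1, AU018091, Tfap2c, Cbr3 and Lamc1, another laminin chain.

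Some genes of the contractile cytoskeleton fell in J1 and rose in F1. Of 29 measured, 9 fell and 0 rose in J1, 21 rose and 0 fell in F1, and 9 passed in both with opposite signs. A difference between effects passed for 19, all with the higher F1 effect, and was above 0 for 29 of 29. Fits without either F1 Rif1 shRNA array tested 28 of the 29, as a member then failed the filter on dim probe sets. The medians were -0.18 in J1, 0.48 in F1 and 0.83 for the difference, against -0.02 for the difference over all genes. The 9 J1 falls and the 9 opposite genes each came to 3 without J1 control replicate 1, with the opposite ones at 6 without J1 control replicate 2 and between 7 and 10 without any other array; the 19 stayed between 17 and 21.

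Acta2, which encodes smooth muscle actin, showed the clearest reversal. Its signal was 739 and 625 on J1 controls, 204 and 171 on J1 Rif1 shRNA arrays, 989 and 859 on F1 controls and 2736 and 3163 on F1 Rif1 shRNA arrays. In deposited signal the controls of the settings were close to each other and the knockdown arrays lay on opposite sides of them, though these signals are not on 1 scale. It fell by 1.88 in J1 and rose by 1.66 in F1, a difference of 3.54 (SE 0.18, limma adjusted p = 3.03e-06). Tagln, an actin-binding protein of smooth muscle, went from 709 and 573 to 327 and 297 in J1 and from 801 and 759 to 2239 and 2491 in F1. Its difference was 2.56 (limma adjusted p = 7.30e-06). These were the only genes at least 2-fold changed in opposite directions, and both kept both calls in all 8 fits that left out 1 array.

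The other 7 opposite contractile genes were Lpp (-1.05 and 0.85), the matricellular genes Ccn1 (-0.69 and 0.84) and Ccn2 (-0.46 and 1.05), which are targets of YAP and SRF, the caldesmon gene Cald1 (-0.63 and 1.06), the non-muscle myosin gene Myh9 (-0.39 and 0.47), the focal adhesion gene Vcl (-0.37 and 0.47) and the actinin gene Actn1 (-0.27 and 0.23). Csrp1 (0.04 and 1.16) and Fhl2 (-0.22 and 1.13) passed in F1 and in the difference but not in J1. The ubiquitous actins Actb (-0.02 and 0.11) and Actg1 (-0.11 and 0.04) and the factor SRF itself (Srf, -0.13 and 0.07) did not pass in any of the comparisons. The CArG box, the motif that SRF binds, was found in 7 of 24 contractile promoters (29.2%) against 1.59% of all promoters and in 2 of 45 (4.44%) of the genes lower in J1 and higher in F1, searched on both strands. Those 7 included Vcl, Fhl2 and Srf.

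Outside that list, Prss23, a serine protease, fell from 240.5 and 193 to 133 and 110 in J1 and rose from 245 and 213 to 652 and 695 in F1. Col5a2, a fibrillar collagen chain, fell from 249 and 218 to 145 and 121 in J1 and rose from 159 and 167 to 682 and 618 in F1. They differed by 2.25 and 2.54 (limma adjusted p = 0.000105 and 2.99e-05). The J1 calls of both were lost without J1 control replicate 1 (adjusted p = 0.0644 and 0.0544), and of the other 2 Prss23 probe sets 1 had a difference of opposite sign. Col4a1 and Col4a2, adjacent genes for the chains of basement membrane collagen, had -0.72 and -0.85 in J1 and 0.90 and 0.87 in F1. Of the 60 genes lower in J1 and higher in F1, 10 kept both calls in all 8 fits that left out 1 array: Acta2, Tagln, Lpp, the small heat shock genes Cryab and Hspb1, Krt18, Sash1, Rbms1, the actin-bundling gene Fscn1 and Trp53inp1.

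**Figure D3:**
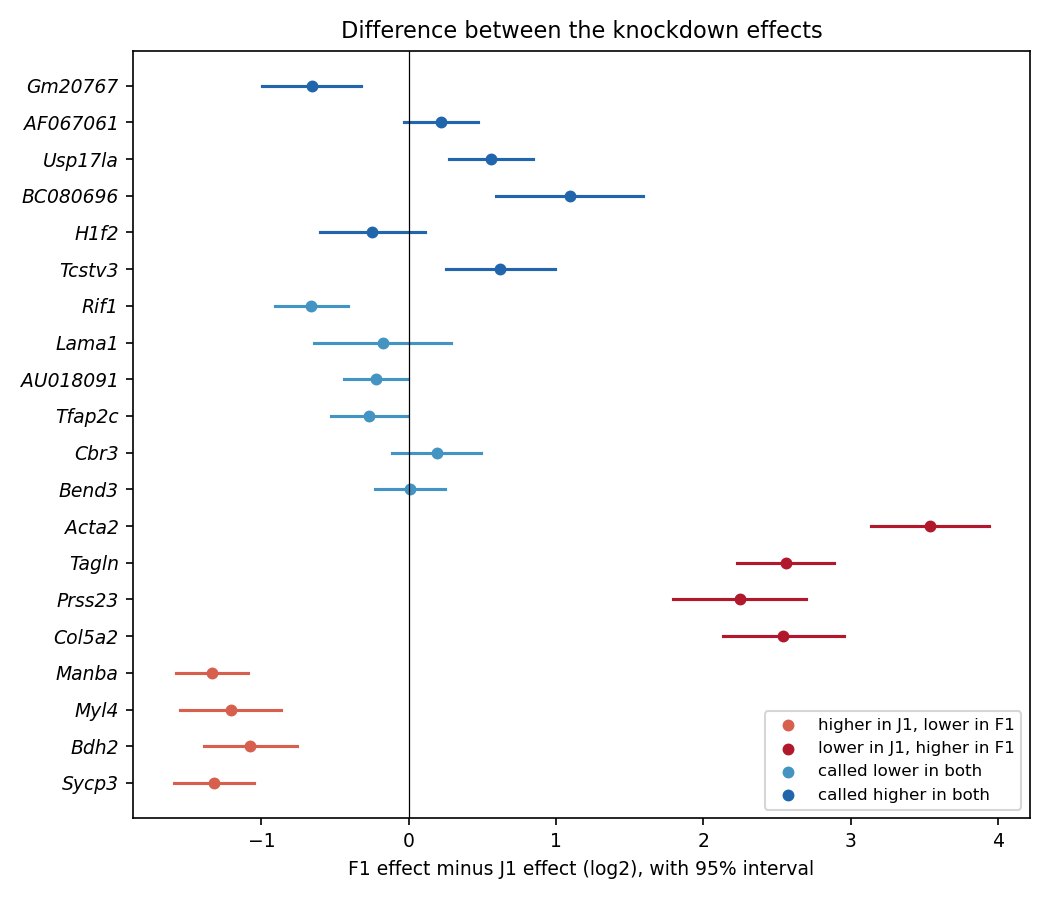
Difference between the knockdown effects (F1 minus J1, log2) with its 95% interval for 20 genes called in both settings. Of the 12 genes called in the same direction, AF067061, H1f2, Lama1, Cbr3 and Bend3 have intervals that include 0, while the 8 called in opposite directions lie between -1.34 and 3.54 with intervals away from 0.

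Fewer genes were higher in J1 and lower in F1, and their effects were modest. Manba, a lysosomal mannosidase, had 299 and 314 on J1 controls, 427 and 489 after J1 knockdown, 1963 and 1928 on F1 controls and 1172 and 1212 after F1 knockdown. It rose by 0.59 in J1 and fell by 0.74 in F1 (difference -1.34, limma adjusted p = 6.42e-05), and of the 25 such genes it alone kept both calls in all 8 fits that left out 1 array. Bdh2, a ketone body dehydrogenase gene 4 coding genes away from Manba, had 0.49 and -0.59, and the myosin light chain gene Myl4 0.52 and -0.69. Differences came to -1.07 and -1.21 (limma adjusted p = 0.00111 and 0.000856). The J1 rise of Bdh2 was lost without any array but J1 control replicate 1 and J1 Rif1 shRNA replicate 1 (adjusted p = 0.0627 to 0.169), and that of Myl4 without either J1 control, J1 Rif1 shRNA replicate 1 or either F1 Rif1 shRNA array (0.0542 to 0.121).

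Sycp3, a protein of the synaptonemal complex that pairs chromosomes in meiosis, started from like deposited signals in both settings, though these are not on 1 scale. It was at 652 and 580 on J1 controls, 811 and 864 after J1 knockdown, 652 and 589 on F1 controls and 336 and 317 after F1 knockdown. The effects were 0.45 and -0.88, and the difference was -1.32 (limma adjusted p = 0.000113). Its J1 rise was lost without J1 control replicate 2 or J1 Rif1 shRNA replicate 2 (adjusted p = 0.148 and 0.0691), while the difference passed in every fit run.

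Germline genes were mixed. Of 32 measured, 7 rose and 0 fell in J1, while 9 rose and 9 fell in F1; 5 rose in both, and 1, Sycp3, was opposite. A difference between effects passed for 3 with the higher and 9 with the lower F1 effect, and the medians were 0.20 in J1 and -0.06 in F1. The J1 count came to 4 without either J1 control array, the F1 rises to 5 without F1 Rif1 shRNA replicate 1, the 3 higher differences to 1 without either F1 Rif1 shRNA array, and the shared rises to 3 without J1 control replicate 1, F1 control replicate 1 or an F1 Rif1 shRNA array. Hsf2bp, which acts with BRCA2 in meiotic recombination, was at 401 and 402 on J1 controls, 420.5 and 452 after J1 knockdown, 699 and 778 on F1 controls and 165 and 160 after F1 knockdown. Its difference was -2.03 (limma adjusted p = 7.18e-06), and its other probe set did not pass the difference. Pdcl2, expressed in germ cells, fell from 91.6 and 93.3 to 16.9 and 17.7 in F1 and was at 81.5 and 85.6 on J1 controls and 115 and 97.5 after J1 knockdown (difference -1.80, limma adjusted p = 0.000324). Other meiotic genes lower in F1 and in the difference were Hormad1 (-1.71 in F1), the piRNA pathway gene Tdrd12 (-0.17 and -1.62), Dmc1 (0.27 and -0.94) and Syce2 (-0.04 and -0.98). Against these, Tex13b was at 25.2 to 28.6 on all J1 arrays, 37.7 and 44.8 on F1 controls and 861 and 921 after F1 knockdown (difference 3.49, limma adjusted p = 1.02e-06), Syce1 had 0.10 and 1.87, and Dazl had 1.32 and 2.06. Tex13b passed the filter on dim probe sets only through the F1 Rif1 shRNA arrays. Without either of them 31 germline genes were tested and Tex13b was not, which lowers the counts given above for those fits.

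The E-box CACGTG, which MAX with MGA binds at germ cell genes in stem cells, was found on 14 of 28 germline promoters (50%), against 11.2% of all promoters, 15 of 94 (16%) of the genes higher in both settings and 6 of 23 (26.1%) of those higher in J1 and lower in F1. The letters of the E-box include ACGTG, the core of the hypoxia response element, so such promoters count under both; both strands were searched. Mga and Max themselves did not pass the difference (-0.26 and 0.19). The promoters of Slc25a31, a mitochondrial carrier of germ cells, and Sycp3 are shown because both hold the E-box (capitals) while the first gene rose alike in both settings (difference 0.13, limma adjusted p = 0.673) and the second went opposite ways. Both are on the plus strand of GRCm38.p6 (RefSeq), chr3:40708621-40708920 and chr10:88459337-88459636, from 250 bases before to 50 after the start site.

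Slc25a31: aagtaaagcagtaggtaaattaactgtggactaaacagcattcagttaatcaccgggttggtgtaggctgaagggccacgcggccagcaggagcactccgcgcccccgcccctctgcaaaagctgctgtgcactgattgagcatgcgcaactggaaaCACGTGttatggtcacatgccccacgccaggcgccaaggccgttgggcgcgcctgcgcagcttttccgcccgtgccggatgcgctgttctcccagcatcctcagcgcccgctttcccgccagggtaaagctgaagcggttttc
Sycp3: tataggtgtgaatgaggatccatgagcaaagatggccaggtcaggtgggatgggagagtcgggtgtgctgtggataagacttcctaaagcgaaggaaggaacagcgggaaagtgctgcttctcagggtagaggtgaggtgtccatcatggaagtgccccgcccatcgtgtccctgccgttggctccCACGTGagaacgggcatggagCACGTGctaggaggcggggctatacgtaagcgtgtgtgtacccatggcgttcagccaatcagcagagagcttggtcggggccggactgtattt

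Simple epithelial keratins were among the genes with the highest differences. Krt18 was at 448 and 402 on J1 controls, 284 and 268 after J1 knockdown, 481 and 478 on F1 controls and 4498 and 4161 after F1 knockdown. It fell by 0.61 in J1 and rose by 3.14 in F1, a difference of 3.75 (SE 0.11, limma adjusted p = 3.62e-08). Its partner Krt8 went from 409 and 372 to 335 and 283 in J1, which did not pass (-0.33, adjusted p = 0.0982), and from 525 and 506 to 4645 and 4208 in F1 (difference 3.42, adjusted p = 4.06e-07). Of 21 epithelial genes measured, 3 rose (1 without J1 control replicate 2) and 1 fell in J1, 12 rose and 0 fell in F1, and the difference passed for 11 with the higher and 1 with the lower F1 effect. The 11 included Anxa3 (-0.25 and 1.95), the desmosome genes Dsp (-0.36 and 1.01) and Dsc2 (0.04 and 1.09), Krt7 (-0.03 and 1.58), Krt19 (0.21 and 1.38) and Cldn4, a tight junction gene (-0.30 and 0.95). The 1 was the plakophilin gene Pkp2 (0.60 and -0.18). Cdh1, the epithelial cadherin that stem cells also express, was also among the 11 (-0.20 and 0.13, with neither effect passed), and Epcam 0.13 and -0.15.

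Fibroblast genes also differed between the settings. Of 32 measured, 1 rose and 3 fell in J1, 28 rose and 0 fell in F1, and the difference passed for 23, all with the higher F1 effect. The medians were -0.06 in J1 and 1.10 in F1. The summed signal of the list was 16470 to 17506 on all J1 arrays, 23433 and 23470 on F1 controls and 42789 and 45601 on F1 Rif1 shRNA arrays. In bulk RNA, more cells of a type and more RNA per cell cannot be told apart. Anxa1 (-0.62 and 1.79), S100a6 (-0.41 and 1.43) and Col5a2 were the 3 opposite members, 0 without J1 control replicate 1 and 1 without J1 control replicate 2. Among genes that define fibroblasts, Thy1 (0.14 and 1.10), Col3a1 (0.15 and 1.27), Dcn (-0.09 and 1.09), Postn (0.03 and 1.29) and Prrx1 (0.20 and 1.10) passed in F1 and in the difference, while Col1a1 (0.11 and 0.62) and Pdgfrb (-0.11 and 0.27) passed in neither. Cells of feeder origin and of the stem cell line were not separated, so the part of feeders in the F1 rises of contractile, collagen and epithelial genes was not tested. In J1 the summed signal of this list was 17506 and 16748 on controls and 16470 and 16524 on Rif1 shRNA arrays. The part of feeders in the J1 falls of Acta2 and Tagln was not tested either.

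The Y-linked genes Eif2s3y and Uty were far lower on the F1 controls than on all other arrays, which did not hold for the other 3 Y-linked genes measured. Eif2s3y, a translation factor gene on chromosome Y, was at 901 and 900 on J1 controls, 780 and 830 after J1 knockdown, 19.9 and 21.4 on F1 controls and 911 and 960 after F1 knockdown. Uty, a histone demethylase homologue there, was at 169 and 180, 157 and 188, 7.54 and 4.69, and 144 and 142 in the same order. Their differences were 4.26 and 2.53 (limma adjusted p = 1.16e-08 and 2.29e-05), the former the highest of all genes. Sry had 0.33 and 1.78, Usp9y 0.15 and -0.88, and Uba1y 0.07 and 0.05. The summed signal of the 5 measured was 1244 to 1361 in J1, 511 and 571 on F1 controls and 2467 and 2889 on F1 Rif1 shRNA arrays. The F1 controls thus differ from the F1 Rif1 shRNA arrays in Eif2s3y and Uty signal, and the part of this in other F1 effects was not tested. On chromosome X, 11.0% of 456 genes had an F1 effect above the J1 effect and 5.48% one below it, against 6.25% and 4.37% of all genes. The share above was 8.78% on chromosome 1 and 8.60% on chromosome 3. Xist, the RNA that silences an X chromosome, had -0.22 and 0.58 (difference 0.79).

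**Figure D4:**
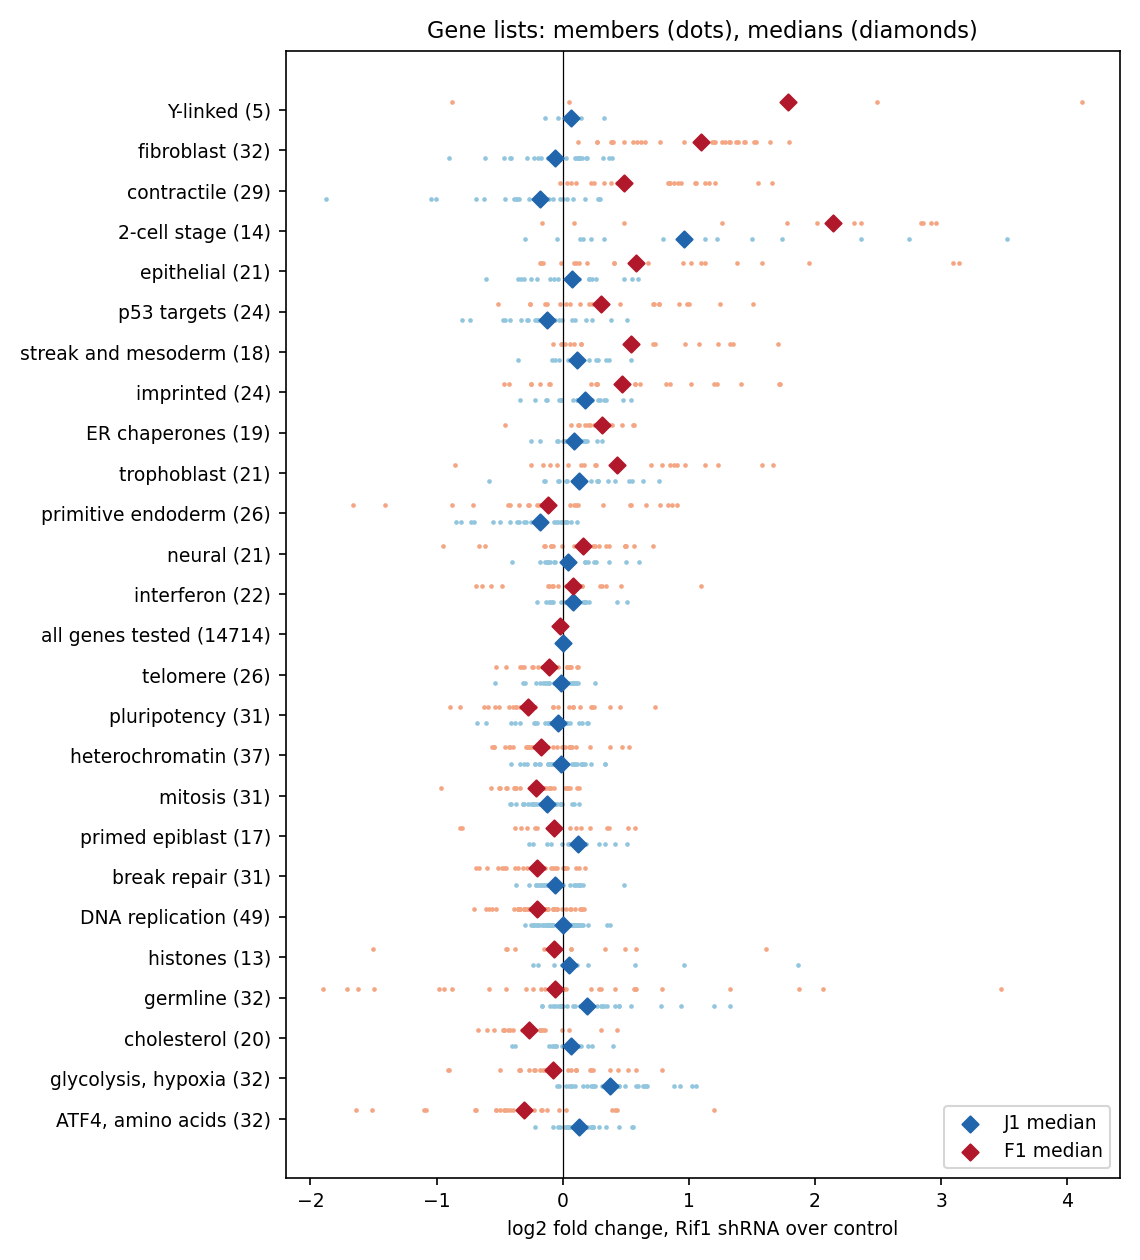
Effects in J1 (blue) and F1 (red) for the members of 25 gene lists (dots) and their medians (diamonds), ordered by the median difference, with the number of genes measured in brackets and all 14714 genes for comparison. Fibroblast, contractile and 2-cell lists have F1 medians right of their J1 medians, and the ATF4 and glycolysis lists have F1 medians to the left.

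Genes of amino acid supply that ATF4 controls went the other way. ATF4 is the transcription factor of the integrated stress response and switches on amino acid synthesis and uptake. Of 32 measured, 5 rose and 0 fell in J1 and 4 rose and 21 fell in F1. A difference between effects passed for 19 with the lower and 2 with the higher F1 effect, and the medians were 0.13 in J1 and -0.31 in F1. The 5 J1 rises came to 0 without J1 control replicate 1, 1 without J1 control replicate 2, 3 without J1 Rif1 shRNA replicate 2 and 2 without either F1 Rif1 shRNA array. Without F1 Rif1 shRNA replicate 1, 11 fell and 1 rose in F1. The 2 higher differences passed without J1 Rif1 shRNA replicate 1, and without any other array 0 or 1 did. The 19 came to 12 without F1 Rif1 shRNA replicate 1 and lay between 13 and 19 without any of the other arrays. Gpt2, a mitochondrial alanine transaminase, was at 1053 and 1198 on J1 controls, 1437 and 1230 after J1 knockdown, 914 and 1014 on F1 controls and 278 and 293 after F1 knockdown. Its difference was -1.88 (limma adjusted p = 2.01e-05) and passed at its other 3 probe sets too. Slc7a3, a cationic amino acid transporter, went from 1075 and 1155 to 1378 and 1347 in J1 and from 2076 and 2055 to 948 and 1033 in F1 (difference -1.39, limma adjusted p = 1.55e-05). Its small J1 rise was lost without any 1 of the 8 arrays (adjusted p = 0.0591 to 0.148).

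Further members with a lower F1 effect were Pck2 (0.12 and -1.51), the stress gene Nupr1 (0.34 and -1.08), the serine synthesis genes Psph (0.15 and -0.69), Phgdh (0.04 and -0.53) and Psat1 (0.10 and -0.46), the proline synthesis gene Aldh18a1 (0.08 and -0.68) and Atf4 itself (0.16 and -0.17). Other members of the list differed from these. Atf3 (0.24 and 1.2) and Ppp1r15a (0.03 and 0.43) had the higher F1 effect, and Ddit3 (0.55 and 0.42) and Atf5 (0.56 and 0.39) rose in both, while Chac1 (0.24 and -0.42), which degrades glutathione, and Trib3 (0.02 and -0.53), an inhibitor of ATF4, had the lower F1 effect. TGATGNAA, the letters of the ATF4 response element, was found on 9 of 27 promoters of the list (33.3%), among them Pck2, Nupr1 and Atf3, against 2.89% of all promoters, with both strands searched.

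Glycolysis and hypoxia genes more often had the lower effect in F1. Of 32 measured, 8 rose and 0 fell in J1, 4 rose and 3 fell in F1, and the difference passed for 7, all with the lower F1 effect. The medians were 0.37 in J1 and -0.08 in F1. These counts rested on single arrays. The 4 F1 rises came to 1 and the 3 F1 falls to 0 or 1 without any 1 F1 array, and they came to 8 and 7 without either J1 Rif1 shRNA array. The 8 J1 rises came to 0 without either J1 control array, 3 without J1 Rif1 shRNA replicate 2 and 23 without J1 Rif1 shRNA replicate 1. The 7 differences came to 3 without J1 control replicate 1 or F1 control replicate 2, 4 without F1 Rif1 shRNA replicate 2, and 19 without J1 Rif1 shRNA replicate 1. Bnip3, a mitophagy gene induced by hypoxia, differed between the knockdown replicates, at 520 on J1 Rif1 shRNA replicate 1 and 1223 on replicate 2, with controls at 343 and 426. In F1 it was at 1214 and 1557 on controls and 739 and 735 after knockdown, and the difference of -1.97 (limma adjusted p = 0.0111) was lost without J1 control replicate 1 (0.056) or F1 control replicate 2 (0.0557). Egln3, an oxygen-sensing hydroxylase, was likewise at 114 and 226 on the J1 Rif1 shRNA arrays, with controls at 73.7 and 89.3, and fell from 385 and 450 to 201 and 212 in F1 (difference -1.93, limma adjusted p = 0.00716). Its F1 call was lost without any 1 of the 4 F1 arrays (adjusted p = 0.101 to 0.194).

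Aldoc, a glycolytic aldolase, was the J1 rise with the largest difference among genes called in J1 alone. It went from 227 and 216 to 307 and 384 in J1 and from 269 and 338 to 244 and 228 in F1 (difference -0.99, limma adjusted p = 0.00482). The J1 rise was lost without either J1 control or J1 Rif1 shRNA replicate 2 (adjusted p = 0.0598 to 0.119). The core letters ACGTG of the hypoxia response element were on 23 of 29 promoters of the list (79.3%), against 27.9% of all.

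Of the 314 genes called in J1 alone, Sfmbt1 and Taf9b changed at least 2-fold. Taf9b, a subunit of the general transcription factor TFIID singled out after its values were seen, had 1.01 and 0.17 (difference -0.85, limma adjusted p = 0.00689). Pcbd2, a cofactor recycling enzyme gene, rose from 249 and 269 to 522 and 434 in J1 and was at 475 to 551 on all F1 arrays (difference -0.87, limma adjusted p = 0.00329). The mucin gene Muc3 (0.81 and -0.05) and 1700042O10Rik (0.68 and -0.23) had differences of -0.86 and -0.92 (limma adjusted p = 0.0228 and 0.00635). Muc3 passed the filter on dim probe sets only through the J1 Rif1 shRNA arrays and was not tested without either of them. For Muc3 the difference was lost without J1 control replicate 2 or any 1 F1 array (adjusted p = 0.0711 to 0.0934), and its J1 rise without either J1 control (0.0568 and 0.112), as was that of 1700042O10Rik (0.0658 and 0.0657). Sfmbt1, a chromatin protein, fell from 174 and 195 to 92.2 and 98.7 in J1 and stayed at 128 to 140 on all F1 arrays. Its effects were -1.05 and 0.03, and the difference was 1.08 (limma adjusted p = 0.00130). Rc3h2, an RNA-binding repressor, had -0.95 and 0.25, Polk, a translesion DNA polymerase, -0.79 and 0.32, and the kinase gene Prkca -0.89 and 0.12, with differences of 1.2, 1.12 and 1.02. The sign of the difference was the opposite at 4 of the other 6 Rc3h2 probe sets, where 1 more passed (1.27), and at both others of Prkca. Polk was lost in J1 without J1 control replicate 2 (adjusted p = 0.109).

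Targets of p53, the DNA damage-responsive tumour suppressor, more often had the higher effect in F1. Of 24 measured, 1 rose and 5 fell in J1, 11 rose and 3 fell in F1, and 3 passed in opposite directions, 1 without either J1 control array. The 5 J1 falls came to 3 and 2 without J1 control replicate 1 or 2, and the 3 F1 falls to 1 without any array but J1 Rif1 shRNA replicate 1 or 2 and F1 control replicate 2. The difference passed for 13 with the higher and 1 with the lower F1 effect, with medians of -0.13 in J1 and 0.30 in F1. Ccng1, a cyclin G gene, went from 4011 and 4056 to 2794 and 3010 in J1 and from 1741 and 1532 to 2822 and 2747 in F1 (difference 1.18, limma adjusted p = 5.11e-05), although its J1 fall was lost without either J1 control array (adjusted p = 0.0585 and 0.0771). Phlda3, an inhibitor of Akt, had -0.27 and 0.92 (difference 1.2, limma adjusted p = 5.70e-05). The cell cycle inhibitor gene Cdkn1a had -0.07 and 0.99, Mdm2, which encodes the ligase that degrades p53, 0.23 and 0.72, and the apoptosis gene Perp -0.46 and 1. Gadd45a (0.10 and -0.51) was the 1 with the lower F1 effect.

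Among genes of DNA replication and division more fell in F1 than in J1, as among all genes (8.20% in F1 and 2.17% in J1). Of 49 replication genes, 2 rose and 3 fell in J1, 0 rose and 23 fell in F1, and the difference passed for 1 with the higher and 12 with the lower F1 effect. The 3 J1 falls came to 0 without any array but the J1 Rif1 shRNA ones, and the 23 F1 falls to 10 to 15 without any 1 F1 array. That 12 came to 2 without F1 control replicate 2 or an F1 Rif1 shRNA array, 4 without F1 control replicate 1, and 6 and 5 without J1 control replicate 1 or 2. Pold2, a polymerase delta subunit, went from 810 and 774 to 826 and 894 in J1 and from 1680 and 1782 to 1075 and 1105 in F1 (difference -0.84, limma adjusted p = 0.000451), and the chromatin assembly gene Chaf1b had 0.16 and -0.56. Of 31 mitosis genes, 4 fell in J1 and 14 in F1, 3 in both (Mki67, Cenpf and Espl1). The J1 falls came to 0 without J1 control replicate 2 and to 1 or 2 without any 1 F1 array, and the F1 falls to 8 without F1 control replicate 2 or F1 Rif1 shRNA replicate 1. A lower F1 effect passed for 4, between 1 and 3 without any array but J1 Rif1 shRNA replicate 1. Nusap1, a spindle protein, had -0.16 and -0.96, and Ccnb2, cyclin B2, -0.12 and -0.51. The other Nusap1 probe set did not pass the difference (0.05).

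Rif1 acts at telomeres, at broken DNA ends and in heterochromatin. Over all genes, 6.25% passed the difference with the higher and 4.37% with the lower F1 effect, and no list was tested against these shares. On the telomere list 2 of 26 passed the difference, Dkc1 (-0.01 and -0.34) and Mre11a (-0.07 and -0.45), and the differences of -0.33 and -0.38 were lost without most single arrays (limma adjusted p = 0.0607 to 0.169 and 0.0656 to 0.217). At the other Mre11a probe set the difference was 0.07 and did not pass. Tert, the telomerase catalytic subunit, had -0.54 and -0.14 and did not pass the difference. On the break repair list 4 of 31 passed, all with the lower F1 effect, 1 without F1 Rif1 shRNA replicate 1 and 2 without F1 control replicate 2 or F1 Rif1 shRNA replicate 2: the Ku subunit gene Xrcc5 (-0.48 in F1, difference -0.48), Mdc1 (-0.06 and -0.66), Rad51c (-0.18 and -0.69) and Mad2l2 (0.49 and -0.14), a shieldin subunit that acts downstream of Rif1. Trp53bp1, the factor that brings Rif1 to breaks, fell in both (-0.37 and -0.38). Among heterochromatin genes 1 of 37 passed with the higher and 5 with the lower F1 effect, among them Morc3 (0.10 and -0.46) and Uhrf1 (-0.03 and -0.54). The 5 came to 3 without J1 control replicate 1, F1 control replicate 1 or an F1 Rif1 shRNA array and to 8 without J1 Rif1 shRNA replicate 1. Among 13 histone genes measured, the difference passed for H2ax, the break-marking variant, from 1602 and 1678 to 584 and 571 in F1 against 1291 and 1278 to 1102 and 1045 in J1 (difference -1.26, limma adjusted p = 2.71e-05), for Cenpa and for Macroh2a2 (0.12 and -0.44), the latter lost without 5 of the 8 arrays (adjusted p = 0.0629 to 0.145).

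Some genes of the streak and mesoderm rose in F1, where 10.6% of all genes rose. In J1 1.86% of all genes rose and 2.17% fell, so 0 calls there in a list this short says little. Of 18 streak and mesoderm genes, 0 passed in J1, 10 rose in F1 and 7 had the higher F1 effect, with medians of 0.11 and 0.54. Cdx1, a homeobox gene of the posterior embryo, was at 33.0 to 42.2 on all J1 arrays, 56.3 and 51.2 on F1 controls and 276 and 281 after F1 knockdown (difference 1.66, limma adjusted p = 0.000113). Hoxb1 (-0.35 and 1.33), Hand1 (0.13 and 1.23) and Eomes (0.11 and 0.97) had differences of 1.68, 1.11 and 0.86. Of 21 trophoblast genes, 4 rose (0 without J1 control replicate 2 and 2 without any 1 F1 array) and 1 fell in J1, 11 rose and 2 fell in F1, and 7 had the higher and 1 the lower F1 effect. The homeobox gene Rhox6 had 0.36 and 1.67 (difference 1.31, limma adjusted p = 0.000880). Ddah1 (0.76 and 0.79) rose alike, and Cdx2 (0.10 and 0.14) passed in neither setting.

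Neural genes were mixed. Fits without either F1 Rif1 shRNA array tested 20 of the 21 measured, so a lower count there need not be lost calls alone. The difference passed for 2 of 21 with the higher F1 effect, Rarb (-0.10 and 0.72) and Irx3 (-0.18 and 0.49), and for 3 with the lower, Sox1 (0.25 and -0.95), Pax6 (0.17 and -0.67) and Neurod1 (0.01 and -0.62). The 2 came to 0 without either F1 Rif1 shRNA array and 1 without either F1 control. On the primed epiblast list, Nodal (-0.13 and 0.52) had the higher and 5 of 17 the lower F1 effect, among them Zic5 (0.10 and -0.82) and Otx2 (0.05 and -0.80); the 5 came to 2 without J1 control replicate 1, F1 control replicate 1 or an F1 Rif1 shRNA array. Of 26 primitive endoderm genes 7 had the higher and 2 the lower F1 effect, led by Sparc, Col4a1 and Col4a2, matrix genes that fibroblasts also express (of the other 2 Sparc probe sets 1 passed and 1 had the opposite sign), and the 7 came to 3 without F1 control replicate 2 or F1 Rif1 shRNA replicate 1. Gata4 (-0.25 and -0.34) and Gata6 (-0.07 and -0.09), which specify that lineage, passed in neither setting. Pluripotency genes more often fell than rose in F1, 15 against 5, with medians of -0.04 in J1 and -0.27 in F1. Among all genes 8.20% fell in F1. Fewer pluripotency genes passed as falls without any 1 F1 array. Of 31 pluripotency genes, 5 had the higher and 7 the lower F1 effect; the 5 came to 3 without F1 control replicate 1 and to 2 without J1 control replicate 2 or any other F1 array. Stat3, which carries the LIF signal, fell in J1 from 924 and 974 to 575 and 580 and rose slightly in F1 from 699 and 741 to 857 and 889, and its F1 rise was lost without any 1 of the 4 F1 arrays (adjusted p = 0.101 to 0.276). Of the other 3 Stat3 probe sets, 1 passed the difference (0.82) and 1 had the opposite sign (-0.08). Its target and inhibitor Socs3 had -0.23 and 0.73, while Esrrb (-0.04 and -0.54), Fgf4 (0.19 and -0.62) and Tcl1 (0.03 and -0.90) were lower in F1 and in the difference.

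Imprinted genes, expressed from 1 parental copy, more often had the higher effect in F1. Of 24 measured, 4 rose and 1 fell in J1, 14 rose and 2 fell in F1, and 10 had the higher and 3 the lower F1 effect. The 3 came to 1 without J1 control replicate 1 or any 1 F1 array, and the 4 J1 rises to 1 without either J1 control and 2 without either F1 Rif1 shRNA array. Meg3, a maternally expressed RNA, was at 2269 and 2468 on J1 controls, 2231 and 2090 after J1 knockdown, 347 and 425 on F1 controls and 1468 and 1363 after F1 knockdown. In deposited signal, which is not on 1 scale between the settings, the F1 knockdown arrays lay between the F1 controls and the J1 arrays. Of the other 9 Meg3 probe sets, 5 passed the difference in the same direction and 2 had the opposite sign. Rian, a neighbour of Meg3 in the same imprinted domain, had -0.13 and 1.22. Igf2, a paternally expressed growth factor, was at 117 to 155 on all J1 arrays, 277 and 281 on F1 controls and 1144 and 1015 after F1 knockdown. The differences of Meg3 and Igf2 were 1.84 and 1.57 (limma adjusted p = 1.22e-05 and 0.000157).

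Of 20 cholesterol synthesis genes, 1 rose and 2 fell in J1 and 1 rose and 10 fell in F1. The J1 falls came to 0 without either J1 control or J1 Rif1 shRNA replicate 2 and to 1 without J1 Rif1 shRNA replicate 1, and the F1 falls to 6 without F1 control replicate 2 and 5 without F1 Rif1 shRNA replicate 2. Among the 20, 7 had the lower F1 effect, from 2 without F1 control replicate 2 or F1 Rif1 shRNA replicate 2 to 9 without J1 Rif1 shRNA replicate 2. Msmo1, a sterol oxidase, had 0.09 and -0.67, and Fdps, which makes farnesyl diphosphate, 0.40 and -0.18; Hmgcs1 (-0.38 and -0.32) and Idi1 (-0.40 and -0.47) fell in both. Endoplasmic reticulum chaperones were slightly higher in F1, where 12 of 19 rose and 1 fell against 1 risen and 0 fallen in J1; the 12 came to 5 without F1 control replicate 2 or F1 Rif1 shRNA replicate 2 and 4 without F1 Rif1 shRNA replicate 1. The difference passed for 4 with the higher F1 effect, 0 without F1 control replicate 2 or F1 Rif1 shRNA replicate 1, among them Dnajb9 (-0.25 and 0.34), and for 1 with the lower, the stress factor Xbp1 (0.12 and -0.46). Of 22 interferon genes, 2 rose in J1 (0 without J1 control replicate 1 and 1 without any other array but J1 Rif1 shRNA replicate 2), and 3 rose (1 without any 1 F1 array) and 4 fell in F1. The difference passed for B2m (0.19 and 1.10) upward and for Ifitm1 (0.17 and -0.48), Ifitm2 (-0.01 and -0.68) and Oas1a (0.03 and -0.64) downward.

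Gm13261, a predicted gene, had the lowest difference of all genes past the threshold. It was at 84.4 and 91.4 on J1 controls, 130 and 95.5 after J1 knockdown, 106 and 118 on F1 controls and 15.4 and 13.5 after F1 knockdown (difference -2.12, SE 0.25, limma adjusted p = 0.000492). Its last level lay under the offset of 18, so the log2 value understates the fall.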

How the data were processed

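Each array took biotin-labelled total RNA of 1 sample, per the labels. The authors deposited MAS5 signals, an intensity on a linear scale for each of 45101 probe sets, per the submitters' processing notes, which name no version. Precision is limited by the number of arrays.

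The 64 control probe sets were left out. Values were quantile normalized over all arrays as log2(signal + 18), and a probe set was kept (31605 were) if 2 or more arrays had it over their own 40th percentile. Of those, 26335 had 1 gene symbol in the platform annotation, for 14714 genes; those listing more than 1 symbol, Zscan4 among them, stayed unnamed. Group means were fitted with limma 3.58.1 under R 4.3.3, using contrasts of group means and moderated variances that follow intensity (4 residual and 6.94 prior degrees of freedom), and all tests were two-sided with Benjamini-Hochberg adjustment over all probe sets. The J1 and F1 effects share no array but share 1 spread estimate. Replicates correlated at 0.991 to 0.997, and no pair was identical. The fit was tested on simulated data. Promoters came from RefSeq tables (GRCm38.p6). Figures used matplotlib 3.10.9 in Python 3.11.15.

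The members, the 25 gene lists and the tests were chosen with earlier results of these data known. Named were every Rif1 probe set; the 6 genes each way called in both settings and the 4 of each kind called in opposite directions, by the smaller of their absolute effects; the 4 of each kind called in 1 setting with the largest difference; the 6 highest and 6 lowest differences; and the 2 members of each list with the smallest p in the difference. Other genes named with values are list members, genes that spell out a count, or Mrpl13 and Taf9b, chosen after their values were seen. Alternatives were other offsets, filters, scalings, spreads, a replicate block and each array left out.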

Additional observations from a re-analysis of the deposited data

Results flagged for a closer look

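Each gene listed here passed the test of the difference itself (limma, adjusted over all probe sets), given as the F1 effect minus the J1 effect on the log2 scale with 2 arrays in each of 4 groups. Differences of at least 2 above 0 were those of Eif2s3y (4.26), Krt18 (3.75), Acta2 (3.54), Tex13b (3.49), Krt8 (3.42), Tagln (2.56), Col5a2 (2.54), Uty (2.53), Anxa1 (2.41), Prss23 (2.25) and Tcstv1 (2.17). Those between 1 and 2 were those of Meg3 (1.84), S100a6 (1.84), Zfp352 (1.79), Col4a2 (1.72), Hoxb1 (1.68), Cdx1 (1.66), Krt7 (1.61), Igf2 (1.57), Rhox6 (1.31), Rc3h2 (1.2), Phlda3 (1.2), Ccng1 (1.18), Polk (1.12), BC080696 (1.09), Sfmbt1 (1.08) and Prkca (1.02). Smaller ones above 0 were found for Socs3 (0.96), Sparc (0.94), Stat3 (0.91), Nodal (0.65), Tcstv3 (0.62), Dnajb9 (0.59) and Usp17la (0.56).

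Below 0, differences of at least 1 in size were those of Gm13261 (-2.12), Hsf2bp (-2.03), Bnip3 (-1.97), Egln3 (-1.93), Gpt2 (-1.88), Pdcl2 (-1.80), Slc7a3 (-1.39), Manba (-1.34), Sycp3 (-1.32), H2ax (-1.26), Myl4 (-1.21), Sox1 (-1.2) and Bdh2 (-1.07). Smaller ones were found for Aldoc (-0.99), 1700042O10Rik (-0.92), Zic5 (-0.91), Pcbd2 (-0.87), Muc3 (-0.86), Pold2 (-0.84), Pax6 (-0.84), Nusap1 (-0.81), Msmo1 (-0.76), Chaf1b (-0.72), Ifitm2 (-0.67), Rif1 (-0.66), Gm20767 (-0.66), Ifitm1 (-0.65), Mdc1 (-0.60), Fdps (-0.58), Xbp1 (-0.57), Morc3 (-0.56), Macroh2a2 (-0.56), Xrcc5 (-0.48), Ccnb2 (-0.38), Mre11a (-0.38) and Dkc1 (-0.33). Some of these 70 calls were lost in fits that left out 1 array, as given above for single genes. Those of Xbp1, Ccnb2, Dnajb9 and Mdc1, for which this is not given above, were lost in such fits too. Tex13b was not tested without either F1 Rif1 shRNA array, nor Muc3 without either J1 Rif1 shRNA array, as they then failed the filter on dim probe sets. In the fits that tested them, the difference of none of the 70 turned its sign.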

How the results depend on the processing

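The numbers of probe sets with the F1 effect above (1578) and below (1066) the J1 effect, higher in both (188), lower in both (105), opposite (128) and called in 1 setting with a passed difference (2176) moved with the spread estimate and with single arrays. With a replicate block, which pairs arrays by number, they were 1047, 662, 111, 43, 67 and 1448, although same-numbered arrays did not deviate together in both settings (correlation -0.34 in J1 and 0.19 in F1). A crossed block in J1, added after the data were seen, gave 1680 below, 200 lower in both and 228 opposite. With no intensity trend 676 were below, 97 higher in both, 25 lower in both and 39 opposite. With each setting's own spread 91 were higher in both, 27 lower in both and 50 opposite. Leaving out 1 array gave 634 to 2382 above, 380 to 1613 below, 85 to 263 higher in both, 15 to 191 lower in both, 35 to 240 opposite and 831 to 3084 in 1 setting. With values as deposited 2361 were above and 1200 below. Other offsets, filters and normalization within each setting kept each of the 6 counts within 1.5 times. Among the 70 named genes that passed the difference, its direction reversed for none under any setting in which the gene was tested. For the other named genes a change of sign was not counted. At 1 dim Rif1 probe set the difference turned to 0.49 with an offset of 72. The offset limits dim genes.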
